A study of Mus musculus with 9 samples.

Results

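The 52 genes described here are the Wnt ligands, their receptors, their secreted inhibitors and the core of the β-catenin branch, out of 38293 genes in the count table. They were taken by symbol from the protein-coding genes: every gene named Wnt, Fzd, Sfrp, Dkk or Rspo with a number, and Lrp5, Lrp6, Axin1, Axin2, Wif1, Frzb, Lef1, Tcf7, Tcf7l1, Tcf7l2 and Ctnnb1. They comprise 19 Wnt ligands, 10 Frizzled receptors, 2 co-receptors, 6 antagonists that bind Wnt proteins, 4 Dickkopf genes, 4 R-spondins and 7 transducers and TCF factors. RNA-Seq was performed on whole ventricles of mice at postnatal day 7 (P7). The 5 control libraries came from Arid1a f/f littermates, which carry the floxed allele without Cre. The 4 cKO libraries came from αMHC-Cre;Arid1a f/f mice, so the floxed Arid1a allele is shared by both groups and the αMHC-Cre transgene is present in the cKO only. αMHC drives Cre in cardiomyocytes, while the RNA came from all cells of the ventricle. The lines were kept on a C57B/6 J background and pups of both sexes were used.

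Wnt proteins are secreted lipid-modified ligands that bind Frizzled receptors and the co-receptors Lrp5 and Lrp6. In the canonical branch this binding stops the destruction complex built on Axin from degrading β-catenin, which then enters the nucleus and acts with TCF and LEF factors. Sfrp proteins, Frzb and Wif1 bind the ligands outside the cell, Dickkopf proteins such as Dkk1 block the co-receptors, and R-spondins keep Frizzled receptors at the surface. In the heart the pathway is known for its roles in early cardiac development, in the endocardial cushions and in fibroblast responses after injury.

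Library totals ranged from 31011055 to 40073801 counts. Levels are given as CPM, counts scaled to the TMM-adjusted library total, and levels of different genes are compared only per kb of annotated exon. Arid1a (ENSMUSG00000007880), which encodes the DNA-binding subunit of the SWI/SNF complex targeted in the cKO, stood at 142, 128, 133, 147 and 148 CPM in the controls, and 108, 113, 100.3 and 104 CPM were found in the cKO. All cKO libraries lay below all controls. The change was -0.39 on the log2 scale (SE 0.06, adjusted P = 0.00132, edgeR quasi-likelihood test), and the counts cover the whole gene rather than the floxed exons. The libraries also fell into 2 sets by the level of the ribosomal protein gene copy Rps3a3: control replicates 1 and 2 and cKO replicates 1 to 3 were low (0.345 to 0.522 CPM), and control replicates 3 to 5 and cKO replicate 4 were high (100.3 to 112 CPM). Rps3a1 went the other way, at 254 to 273 CPM in the Rps3a3-low set and 71.2 to 75.9 CPM in the Rps3a3-high set. Cardiomyocyte markers summed to between 49976 and 59207 CPM in the controls and between 44181 and 50465 CPM in the cKO, and 2 of these 10 markers (Pln and Myl2) passed, both lower, where 8.03% of all genes tested passed lower. None of the 10 cardiomyocyte markers was at 0. In whole tissue, fewer cells of a type and less RNA per cell cannot be told apart.

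Of the 52 genes, 36 had enough counts to be tested and 16 did not. An adjusted P under 0.05 was reached by 13 of the 36 (36.1%), against 16.3% of all 15318 genes tested. Of these, 10 were higher in the cKO (8.25% of all genes tested were) and 3 were lower (8.03% of all genes tested). A change above 1.5-fold was called in addition for 7 of the 36 (19.4%, against 6.72% of all genes tested). The called genes were Wnt16, Wnt9b, Wif1, Sfrp2, Sfrp1 and Frzb, all higher (4.01% of all genes tested were called higher), and Sfrp5, which was lower (2.72% of all genes tested were called lower). The control and cKO libraries did not overlap for 9 of the 36 (25%, against 16.7% of all genes tested), and all 9 were among the 13 that passed. Of the 36 log2 fold changes, 18 were above 0 and 18 below, with a median of 0.02 against 0.01 over all genes tested. This median was -0.03 without cKO replicate 2, -0.037 without control replicate 2 and 0.15 without control replicate 5. Sfrp5 reached the filter level for low counts in 5 control and 0 cKO libraries, so it entered the test through the controls alone. Wnt16 reached it in 1 control and 4 cKO libraries, so it entered through the cKO, and the filter favoured its rise in the same way.

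**Figure D1:**
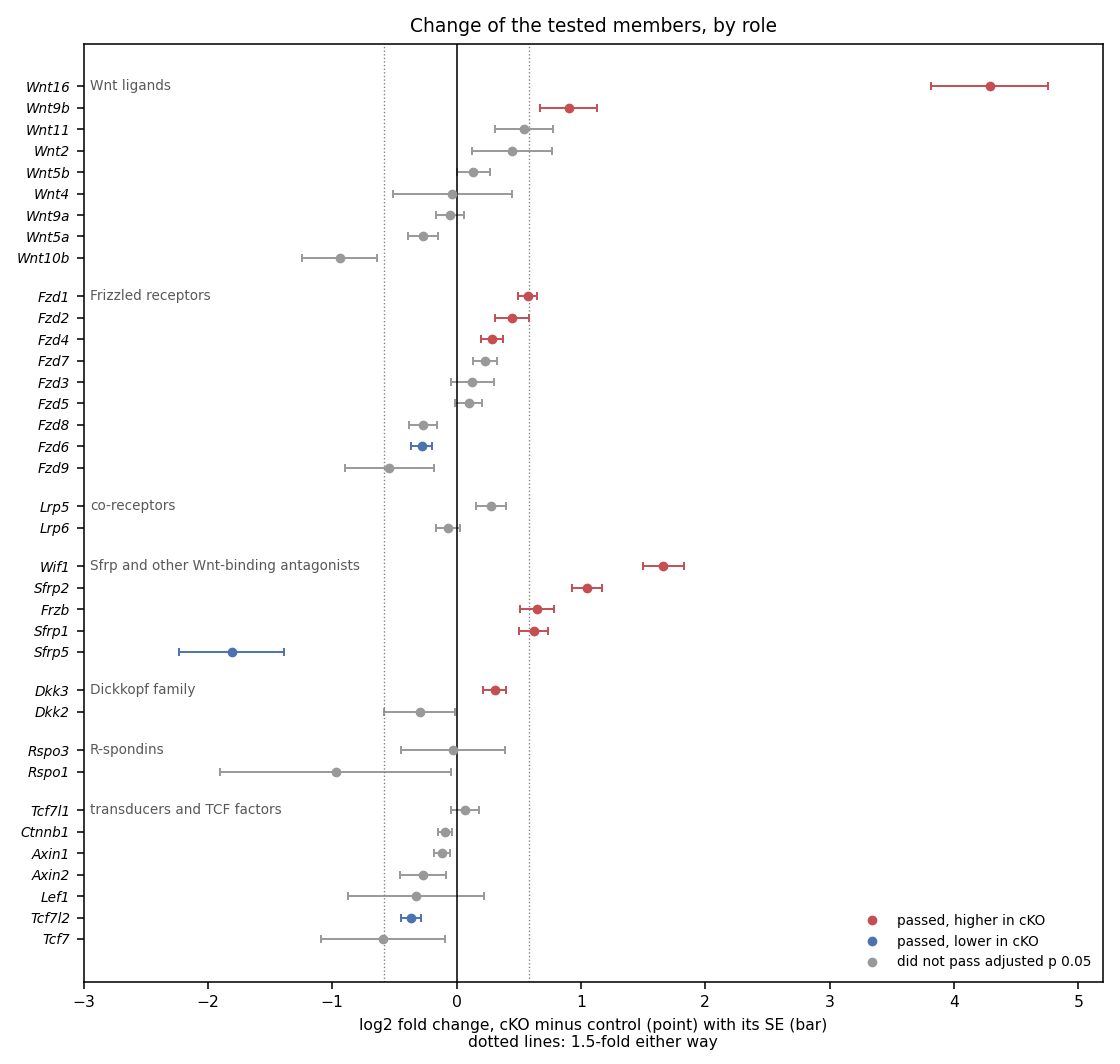
Log2 fold change between cKO and control for the 36 tested members, grouped by role, with bars for the SE. Red points passed an adjusted P of 0.05 higher in the cKO (10 genes), blue points passed lower (3 genes), grey points did not pass, and Wnt16 lies farthest to the right at 4.29.

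Wnt ligands were present at low levels, and 3 of them made up most of the ligand RNA. Per kb of exon, Wnt5b stood at 2.50 ± 0.20 CPM per kb in the controls (SD, n = 5), Wnt9a at 2.39 ± 0.29 and Wnt5a at 1.49 ± 0.23. Wnt5b and Wnt9a overlapped, and both lay above Wnt5a in every control library. The next ligand, Wnt2, was at 0.30 ± 0.14 CPM per kb and its range did not reach that of Wnt5a. Wnt5a, Wnt5b and Wnt9a together accounted for 80.0% to 84.4% of the summed ligand level per kb in the controls and for 63.2% to 73.3% in the cKO. Wnt5a and Wnt5b are best known for β-catenin-independent signalling. None of these 3 ligands passed the test, with log2 fold changes of -0.27 for Wnt5a (adjusted P = 0.152), 0.13 for Wnt5b (adjusted P = 0.546) and -0.06 for Wnt9a (adjusted P = 0.784). Wnt5a passed in 1 of the 9 fits that left out a library, the one without control replicate 1 (adjusted P = 0.0498). Wnt5b, the ligand with the highest control level per kb, read 7.43, 6.75, 6.59, 6.17 and 6.18 CPM across control replicates 1 to 5, while cKO replicates 1 to 4 gave 6.59, 8.72, 7.88 and 5.86 CPM. Its groups overlapped, with the highest and the lowest library both in the cKO.

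Wnt16 had the largest log2 fold change of the 36 tested members, and it could be tested only because it was high in the cKO. It read 0.451, 0.232, 0.111, 0.189 and 0.291 CPM across control replicates 1 to 5, while cKO replicates 1 to 4 gave 1.90, 4.96, 4.14 and 9.01 CPM. All cKO libraries lay above all controls, and cKO replicate 4 was the highest. Wnt16 (ENSMUSG00000029671, GRCm38 chromosome 6, 22288227 to 22298522) encodes a ligand known from bone and haematopoietic stem cell development. The controls averaged 0.255 ± 0.128 CPM (SD, n = 5) against 5.0 ± 2.97 CPM for the cKO (SD, n = 4), a change of 4.29 on the log2 scale (SE 0.47, adjusted P = 0.000127). The raw counts behind these levels ran from 4 to 372. Its share of the summed ligand level per kb went from between 0.32% and 1.31% in the controls to between 5.42% and 22.6% in the cKO, and in the cKO its range overlapped that of Wnt5a. All 9 fits that left out a library called it, with log2 fold changes from 3.84 to 4.60.

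Wnt9b was the other ligand that passed. It read 1.14, 1.33, 1.05, 0.849 and 0.905 CPM across control replicates 1 to 5, while cKO replicates 1 to 4 gave 2.46, 2.15, 2.06 and 1.28 CPM. Of the cKO libraries, 3 lay above all controls, and cKO replicate 4 lay below control replicate 2. Wnt9b (ENSMUSG00000018486, GRCm38 chromosome 11, 103727364 to 103749821) is a canonical ligand known from kidney development and from the endocardium of the heart valves. The change was 0.90 on the log2 scale (SE 0.23, adjusted P = 0.0186), and without cKO replicate 2 the adjusted P was 0.0515. The other 7 tested ligands did not pass, with log2 fold changes from -0.94 to 0.54. Wnt10b was the one nearest the threshold, with 0.711 ± 0.188 CPM in controls (SD, n = 5), 0.371 ± 0.096 CPM in the cKO (SD, n = 4), a log2 fold change of -0.94 and an adjusted P of 0.0507. Wnt10b passed without cKO replicate 1 (adjusted P = 0.0404) and without control replicate 3 (adjusted P = 0.0371). Wnt11, a ligand used in early cardiac differentiation, was at 0.54 (adjusted P = 0.139), Wnt2 at 0.45 (adjusted P = 0.389) and Wnt4 at -0.03 (adjusted P = 0.972) on the log2 scale.

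The remaining 10 ligands fell below the filter on low counts and were not tested in edgeR. Wnt3, Wnt3a, Wnt8a, Wnt8b and Wnt10a had 0 counts in all 9 libraries, and a count of 0 allows up to 3 counts, or between 0.0726 and 0.0970 CPM depending on the library. This limit covers counting error only. The highest count in any library was 3 for Wnt1, 4 for Wnt7a, 7 for Wnt6, 8 for Wnt7b and 30 for Wnt2b. The Wnt2b count of 30 was in control replicate 5 (0.970 CPM), while the other libraries lay between 0.029 and 0.331 CPM. DESeq2, which applies its own filter, did test Wnt2b and gave a log2 fold change of -2.28 (adjusted P = 0.0498). Several ligand genes lie beside each other in the genome, and 4 pairs of members were within 100 kb. In 3 of these pairs 1 ligand was measured well enough to test and its neighbour was at or near 0: Wnt9b and Wnt3 (24.3 kb apart on chromosome 11), Wnt9a and Wnt3a (16.2 kb, chromosome 11), and Wnt10b and Wnt1 (11.7 kb, chromosome 15). In the fourth pair, Wnt6 and Wnt10a on chromosome 1, neither could be tested.

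Summed per kb, Frizzled receptors stood at 33.7 to 36.2 CPM per kb in the controls and at 36.9 to 43.4 in the cKO, against 7.10 to 8.32 and 8.03 to 9.79 for the ligands, and the order of the receptors by mean level differed between the groups. In the controls Fzd6 led with 9.12 ± 0.43 CPM per kb (SD, n = 5), followed by Fzd4 with 7.30 ± 0.71, Fzd1 with 6.90 ± 0.29 and Fzd2 with 5.04 ± 0.56. In the controls the range of Fzd6 lay above that of Fzd4, while Fzd4 and Fzd1 overlapped. In the cKO Fzd1 led with 10.2 ± 1.03 CPM per kb (SD, n = 4), ahead of Fzd4 with 8.88 ± 0.84, Fzd6 with 7.50 ± 0.94 and Fzd2 with 6.86 ± 1.51, and each of these overlapped the next. Fzd1, Fzd4 and Fzd6 together held 65.4% to 69.5% of the summed Frizzled level per kb in the controls and 62.7% to 68.9% in the cKO. Within that sum Fzd1 went from between 19.4% and 20.4% to between 23.8% and 27.0%, and Fzd6 from between 24.7% and 28.7% to between 16.1% and 22.2%.

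Fzd1 (ENSMUSG00000044674, GRCm38 chromosome 5, 4753839 to 4758035) was the receptor with the lowest adjusted P. It read 27.9, 28.5, 28.3, 29.0 and 31.0 CPM across control replicates 1 to 5, while cKO replicates 1 to 4 gave 39.4, 45.5, 39.2 and 47.8 CPM. All cKO libraries lay above all controls. The change was 0.57 on the log2 scale (SE 0.08, adjusted P = 0.000361), just under 1.5-fold, and Fzd1 passed in all 9 fits that left out a library. Fzd2, a receptor of Wnt5a, read 21.4, 19.1, 18.2, 15.7 and 17.9 CPM across the controls, while the cKO gave 19.0, 30.2, 22.0 and 29.4 CPM. Fzd4, which also serves as the receptor of norrin in vessels, read 49.3, 41.7, 47.9, 54.3 and 52.0 CPM across the controls, while the cKO gave 59.6, 53.0, 59.2 and 66.9 CPM. Fzd6 read 40.9, 46.6, 43.9, 44.8 and 43.7 CPM across the controls, while the cKO gave 34.6, 31.2, 42.0 and 36.8 CPM. These 3 receptors overlapped between the groups, Fzd2 in cKO replicate 1, Fzd4 in cKO replicate 2 and Fzd6 in cKO replicate 3. Their log2 fold changes were 0.45 for Fzd2 (adjusted P = 0.0470), 0.28 for Fzd4 (adjusted P = 0.0476) and -0.28 for Fzd6 (adjusted P = 0.0402). Each of the 3 passed in only 2 of the 9 fits that left out a library: Fzd2 without cKO replicate 1 or control replicate 1, Fzd4 without cKO replicate 2 or control replicate 4, and Fzd6 without cKO replicate 3 or control replicate 1. The highest adjusted P in these fits was 0.142 for Fzd2 (without cKO replicate 2), 0.140 for Fzd4 (without cKO replicate 4) and 0.10 for Fzd6 (without cKO replicate 2). The other 5 tested Frizzled genes did not pass, with log2 fold changes from -0.54 for Fzd9 to 0.23 for Fzd7. Fzd10 was too low to test, with at most 16 counts in a library.

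**Figure D2:**
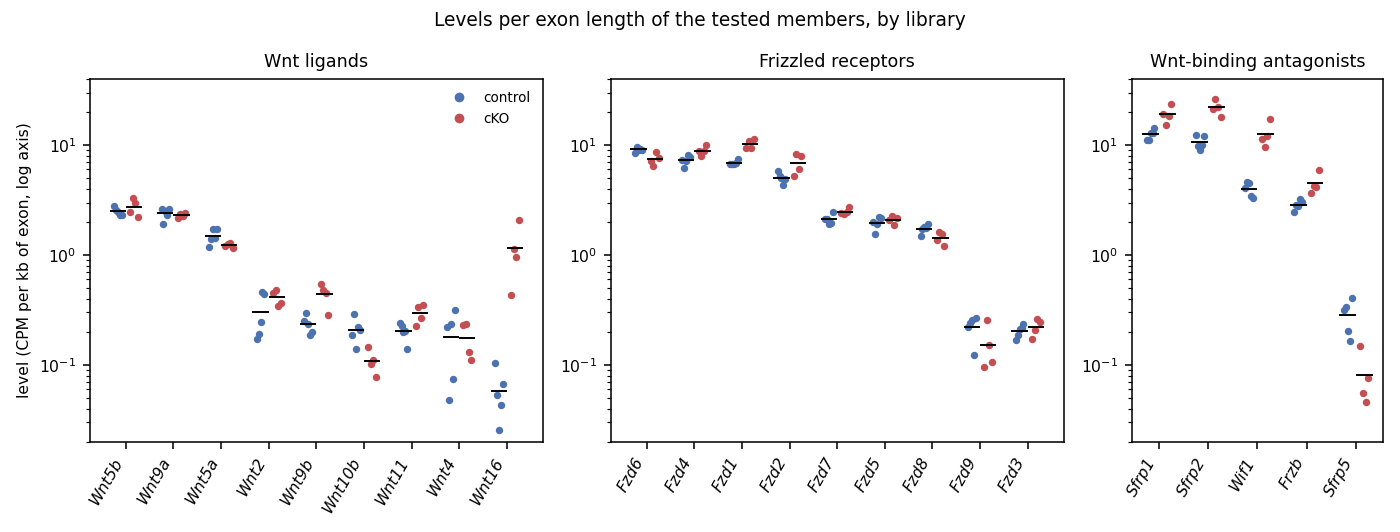
Level per kb of exon (CPM per kb, log axis) of the tested Wnt ligands, Frizzled receptors and Wnt-binding antagonists in each control (blue, 5 libraries) and cKO (red, 4 libraries) library, with black lines for group means and genes ordered by control level. Wnt16 moves from the lowest of the tested ligands in the controls to 1.15 CPM per kb in the cKO, and Fzd6 leads the receptors in the controls but not in the cKO.

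The co-receptors Lrp5 and Lrp6 did not pass. Lrp6 had the higher mean level per kb in the controls, though the control ranges of the pair overlapped. In the cKO the means were 6.27 CPM per kb for Lrp6 and 6.28 for Lrp5. Lrp6 read 76.2, 78.8, 91.2, 101 and 103 CPM across control replicates 1 to 5, while cKO replicates 1 to 4 gave 84.1, 81.0, 90.6 and 87.3 CPM. For Lrp6 the cKO libraries lay within the range of the controls, and the log2 fold change was -0.07 (adjusted P = 0.666, 95% interval -0.27 to 0.13). Lrp5 had a log2 fold change of 0.28 (adjusted P = 0.159, 95% interval 0.01 to 0.55). The intervals, unlike the adjusted P, are not adjusted for the number of genes tested.

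Of the 6 secreted antagonists that bind Wnt proteins, Wif1, Sfrp2, Sfrp1 and Frzb were called higher, Sfrp5 was called lower and Sfrp4 could not be tested. Of all genes tested, 4.01% were called higher and 2.72% lower. The groups did not overlap for the 5 tested antagonists, nor for 16.7% of all genes tested. Sfrp5 could be tested only because it was high in the controls, so its fall was favoured by the filter on low counts. Summed per kb, the 6 genes of this class were at 28.9 to 33.1 CPM per kb in the controls and at 55.5 to 64.8 CPM per kb in the cKO. Wif1 (ENSMUSG00000020218, GRCm38 chromosome 10, 121033960 to 121100650), Wnt inhibitory factor 1, rose most. It read 9.87, 11.2, 10.9, 8.40 and 7.92 CPM across control replicates 1 to 5, while cKO replicates 1 to 4 gave 27.7, 23.4, 29.3 and 41.8 CPM. The lowest cKO library was above the highest control, and cKO replicate 4 was again the highest. Controls averaged 9.64 ± 1.44 CPM (SD, n = 5) against 30.5 ± 7.88 CPM for the cKO (SD, n = 4), with a change of 1.66 on the log2 scale (SE 0.16, adjusted P = 3.97e-05).

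Sfrp2 (ENSMUSG00000027996, GRCm38 chromosome 3, 83766321 to 83774316) encodes a secreted Frizzled-related protein that is also known to act on collagen processing. It read 26.7, 21.1, 19.3, 21.4 and 26.0 CPM across control replicates 1 to 5, while cKO replicates 1 to 4 gave 46.0, 56.4, 48.2 and 38.8 CPM. Here cKO replicate 4 was the lowest of its group, still above all controls. The change was 1.05 on the log2 scale (SE 0.12, adjusted P = 0.000125). An antisense gene, Gm26771, overlaps 464 bases of Sfrp2, and whether the counting used strand is not given in the sources used here. Among the other passing members, Gm26704 overlaps 152 bases of Fzd6 and the sense-intronic Ppnr 4226 bases of Tcf7l2.

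Sfrp1 (ENSMUSG00000031548, GRCm38 chromosome 8, 23411502 to 23449632) was the antagonist with the highest mean control level per kb, though its control range overlapped that of Sfrp2. In the cKO Sfrp2 had the higher mean, 22.0 against 19.2 CPM per kb for Sfrp1. Sfrp1 read 48.9, 49.0, 56.6, 56.0 and 62.4 CPM across control replicates 1 to 5, while cKO replicates 1 to 4 gave 84.6, 67.0, 80.6 and 103 CPM. The change was 0.62 on the log2 scale (SE 0.12, adjusted P = 0.00331), with cKO replicate 2 closest to the controls. Frzb (ENSMUSG00000027004, GRCm38 chromosome 2, 80411970 to 80447625), also called Sfrp3, read 7.91, 9.30, 8.98, 10.4 and 9.89 CPM across the controls, while the cKO gave 11.9, 13.8, 13.4 and 19.2 CPM. The change was 0.65 on the log2 scale (SE 0.14, adjusted P = 0.0077), and cKO replicate 4 stood above the rest. Without cKO replicate 4 the changes of Sfrp1 and Frzb were 0.50 and 0.48, under 1.5-fold, and both still passed (adjusted P = 0.00827 and 0.0180). Without control replicate 1 the change of Sfrp1 was 0.58, and without control replicate 2 it was also 0.58, again below 1.5-fold.

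Sfrp5 (ENSMUSG00000018822, GRCm38 chromosome 19, 42197971 to 42202252) moved the other way from low levels. It read 0.602, 0.637, 0.388, 0.315 and 0.776 CPM across control replicates 1 to 5, while cKO replicates 1 to 4 gave 0.280, 0.106, 0.0869 and 0.145 CPM. Every cKO library lay below every control, with cKO replicate 1 close to control replicate 4. The change was -1.81 on the log2 scale (SE 0.42, adjusted P = 0.0119), from counts of 3 to 24 per library, and the filter favoured such a fall because Sfrp5 reached its level in no cKO library. Sfrp4 was too low to test, with 4 to 12 counts per library.

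**Figure D3:**
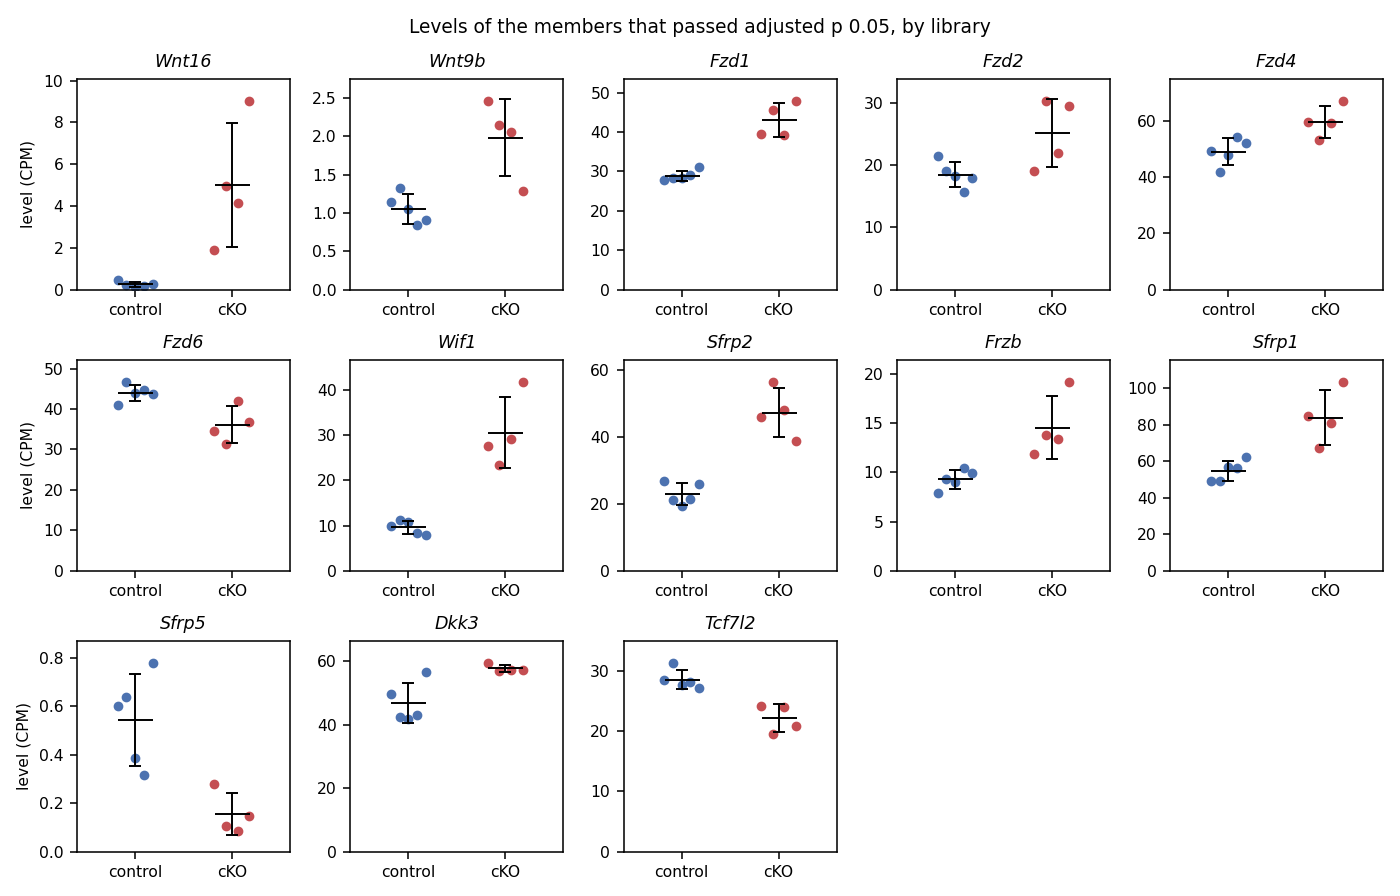
Level in CPM of the 13 members that passed, in each of the 5 control (blue) and 4 cKO (red) libraries, with a black line for the mean and bars for the SD; every axis starts at 0. The groups are separate for Wnt16, Fzd1, Wif1, Sfrp2, Frzb, Sfrp1, Sfrp5, Dkk3 and Tcf7l2, and touch for Wnt9b, Fzd2, Fzd4 and Fzd6.

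Some markers of other cells also differed between the groups, where 8.25% of all genes tested passed higher and 8.03% lower. Of 10 fibroblast markers, 4 passed higher (Col1a1, Col1a2, Tcf21 and Postn) and 6 did not pass, with a list median log2 fold change of 0.13, and the list summed to between 7040 and 8354 CPM in the controls and between 8673 and 9654 CPM in the cKO. Of 5 endocardial markers, 4 passed higher (Tmem108, Plvap, Cytl1 and Npr3), with a list median of 0.75, and the list summed to between 63.2 and 77.2 CPM in the controls and between 86.5 and 110.6 CPM in the cKO. No marker of either list was at 0. Their part in the changes of Wnt16, Wnt9b and the antagonists was not tested. Of 4 tested atrial markers, Myl7 was higher and Stard10 lower, with a list median of -0.54, while the list summed to between 66.8 and 145 CPM in the controls and between 129 and 194 CPM in the cKO. Of 7 epicardial markers, Wt1 was lower, with a list median log2 fold change of -0.40, and of 10 endothelial markers, Tek was lower. Mural cell, macrophage, Schwann cell and erythroid markers had 0 of 8, 0 of 9, 0 of 5 and 0 of 6 passing, with list medians of 0.06, 0.45, -0.32 and 0.32. The macrophage list summed to between 97.8 and 168 CPM in the controls and between 121 and 232 CPM in the cKO.

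The 250 bases in front of the start are shown for the 4 called genes whose RefSeq start coincides with the GENCODE start, read 5′ to 3′ on the strand of the gene (RefSeq, GRCm38.p6). They let the regulatory sequence of both called ligands be set beside that of the antagonist with the called fall and of 1 that rose. Capitals mark CCAAT, or ATTGG on the other strand, and the GC box GGGCGG, or CCGCCC on the other strand. The windows are chr6:22287977-22288226 on the plus strand for Wnt16, chr11:103749822-103750071 on the minus strand for Wnt9b, chr3:83766071-83766320 on the plus strand for Sfrp2 and chr19:42202253-42202502 on the minus strand for Sfrp5.
Wnt16: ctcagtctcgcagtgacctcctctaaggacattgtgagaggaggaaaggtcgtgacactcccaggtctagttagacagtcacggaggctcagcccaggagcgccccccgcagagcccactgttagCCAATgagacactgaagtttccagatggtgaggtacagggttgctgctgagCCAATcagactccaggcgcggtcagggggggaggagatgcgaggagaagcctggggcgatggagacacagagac
Wnt9b: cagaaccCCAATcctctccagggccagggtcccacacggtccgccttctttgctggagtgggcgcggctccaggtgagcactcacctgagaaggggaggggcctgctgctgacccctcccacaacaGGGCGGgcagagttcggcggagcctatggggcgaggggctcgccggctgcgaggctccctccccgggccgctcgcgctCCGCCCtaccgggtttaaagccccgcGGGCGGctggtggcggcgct
Sfrp2: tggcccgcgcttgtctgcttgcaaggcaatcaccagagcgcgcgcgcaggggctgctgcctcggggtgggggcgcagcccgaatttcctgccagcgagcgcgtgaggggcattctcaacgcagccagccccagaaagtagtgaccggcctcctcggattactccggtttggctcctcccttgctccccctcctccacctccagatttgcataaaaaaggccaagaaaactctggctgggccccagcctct
Sfrp5: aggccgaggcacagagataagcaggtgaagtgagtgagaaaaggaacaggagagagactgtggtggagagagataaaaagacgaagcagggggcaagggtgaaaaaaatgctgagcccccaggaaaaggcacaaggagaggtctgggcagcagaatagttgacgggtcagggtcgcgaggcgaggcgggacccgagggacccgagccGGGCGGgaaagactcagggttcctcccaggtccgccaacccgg
Wnt16 held 2 CCAAT matches and no GC box, Wnt9b 1 CCAAT match and 3 GC boxes, Sfrp5 1 GC box, and Sfrp2 neither. In all, 35 of the 52 members had an entry in the RefSeq promoter table and 17 did not. A GC box match was found in 28 of the 35 windows and in 32.7% of all 32851 windows of this length, and a CCAAT match in 11 and in 33.8%. The letters CTTTGA or TCAAAG, a core of TCF/LEF motifs, were in 4 of the 35 (Wnt11, Fzd1, Frzb and Dkk1) and in 13.8% of all windows. GGAATG or CATTCC, bound by TEAD factors, was in 0 of the 35 and in 12.6% of all windows, and the MEF2 motif was in 0 of the 35 and in 3.2%. Both strands were searched, and a match in letters does not show that a factor binds there. The 35 windows held between 48.4% and 87.6% G or C, and all windows were not matched to them in base content. The part of base content in these shares was not tested. Sites outside these 250 bases were not searched.

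Among the Dickkopf genes, Dkk3 passed. Unlike Dkk1, Dkk3 is a divergent member that is not regarded as a classical blocker of the co-receptors. It read 49.6, 42.5, 41.6, 43.1 and 56.5 CPM across control replicates 1 to 5, while cKO replicates 1 to 4 gave 59.3, 57.0, 57.1 and 57.3 CPM. Every cKO library lay above every control, although control replicate 5 came within 1 CPM of the cKO. The change was 0.31 on the log2 scale (SE 0.09, adjusted P = 0.0379). It passed in 2 of the 9 fits that left out a library, those without control replicate 1 (adjusted P = 0.0396) or control replicate 5 (adjusted P = 0.00712), and the highest adjusted P was 0.0896, without control replicate 3. Dkk2 did not pass, with a log2 fold change of -0.30 (adjusted P = 0.528). Dkk1 had at most 7 counts in a library and Dkk4 had 0 in all 9.

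R-spondins were low, and control replicate 5 stood apart in both that could be tested. Rspo1 read 0.0903, 0.261, 0.554, 0.0944 and 2.85 CPM across control replicates 1 to 5, while cKO replicates 1 to 4 gave 0.435, 0.451, 0.319 and 0.339 CPM. The cKO libraries lay within the spread of the controls, with a change of -0.97 on the log2 scale (SE 0.93, adjusted P = 0.528) that became 0.59 without control replicate 5. Rspo3, which promotes coronary vessel growth, was at 0.938 CPM in control replicate 5 and between 0.261 and 0.391 CPM in the other controls, with 0.218 to 0.591 CPM in the cKO, and its log2 fold change was -0.03 (adjusted P = 0.972). Control replicate 5 also held the highest sum of the 7 epicardial markers found in the table, 152 CPM. The control median of this sum was 88.6 CPM, and the cKO ranged from 81.5 to 111 CPM. The part of these markers in the levels of Wnt2b, Rspo1 and Rspo3 was not tested. Rspo2 had at most 18 counts in a library and Rspo4 had 0 in all.

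Of the 7 transducers and TCF factors, 6 did not pass, β-catenin and Axin2 among them. Ctnnb1, which encodes β-catenin, read 732, 765, 758, 799 and 799.8 CPM across control replicates 1 to 5, while cKO replicates 1 to 4 gave 715, 683, 725 and 762 CPM. The groups overlapped, with a change of -0.10 on the log2 scale (SE 0.06, adjusted P = 0.288, 95% interval -0.22 to 0.03). Axin2, a negative feedback gene widely read as a marker of β-catenin signalling, read 3.16, 3.36, 2.71, 3.81 and 4.59 CPM across the controls, while the cKO gave 3.02, 3.31, 3.07 and 2.28 CPM. Its groups overlapped, with a change of -0.27 on the log2 scale (SE 0.18, adjusted P = 0.351, 95% interval -0.67 to 0.13). Axin1, the scaffold of the destruction complex, had a log2 fold change of -0.12 (adjusted P = 0.237).

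Of the 4 TCF factors, Tcf7l2 passed, and it was the only transducer to do so. Tcf7l2 (ENSMUSG00000024985, GRCm38 chromosome 19, 55741820 to 55933654) read 28.5, 31.3, 27.8, 28.1 and 27.2 CPM across control replicates 1 to 5, while cKO replicates 1 to 4 gave 24.1, 19.6, 24.1 and 20.9 CPM. All cKO libraries lay below all controls. The change was -0.37 on the log2 scale (SE 0.08, adjusted P = 0.0101), smaller than 1.5-fold, and it passed in all 9 fits that left out a library. Tcf7l1 was at 0.07 on the log2 scale (adjusted P = 0.725). Tcf7 was at 8.98 CPM in control replicate 3 and between 1.48 and 2.43 CPM in the other controls, and its log2 fold change of -0.59 (adjusted P = 0.471) became 0.17 without that library. Lef1 was also highest in control replicate 3, at 0.997 CPM, and its log2 fold change of -0.33 (adjusted P = 0.734) became 0.29 without it. The T-cell markers Cd3e and Cd3d were at 0.914 and 1.22 CPM in the same library and at no more than 0.311 and 0.239 CPM in the others. The 7 lymphocyte markers summed to between 2.99 and 6.09 CPM in the controls and between 3.53 and 4.84 CPM in the cKO, and their part in the levels of Tcf7 and Lef1 was not tested.

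Other genes of the pathway were followed in 7 lists. Of 23 tested genes often used as β-catenin targets, 4 were higher and 2 lower (26.1%, against 16.3% of all genes tested), with a median log2 fold change of 0.10 against 0.01 over all genes tested, and 4 of the 30 listed genes are members described above. The genes that rose were Ccn5 (1.82), Sox9 (0.76), Myc (0.61) and Id2 (0.54), and those that fell were Fgf18 (-1.35) and Tnfrsf19 (-0.83), all as log2 fold changes. In the 5 Rps3a3-low libraries, and also without control replicates 3 and 5, 3 genes of this list passed, and 5.44% and 8.54% of all genes tested did. Ccn5 is a matricellular protein, Sox9 a transcription factor of valve and cartilage cells, and Fgf18 a growth factor. Of 13 further extracellular modulators, 4 were higher and 1 lower (38.5%, against 16.3% of all genes tested), with a median of 0.24. Sost, the gene of the co-receptor blocker sclerostin, had the largest of these changes: it was at 0.55 to 1.47 CPM in the controls and 3.51 to 5.86 CPM in the cKO, a change of 2.14 on the log2 scale (SE 0.26, adjusted P = 0.000167). Bgn (0.58), Cthrc1 (0.44) and Igfbp4 (0.36) were also higher, and the glypican Gpc4 (-0.46) was lower. Over 20 alternatives Gpc4 missed the threshold in 5, those without cKO replicate 2 or control replicate 5 among them, and Igfbp4 in 1, and 3 genes of this list passed in the 5 Rps3a3-low libraries.

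In the list of β-catenin-independent genes 6 of 28 were lower (8.03% of all genes tested were) and 1 was higher (8.25% of all genes tested were), with a median log2 fold change of 0.01. The 7 passing genes became 4 with the replicate block and 3 in the 5 Rps3a3-low libraries, fits in which 11.3% and 5.44% of all genes tested passed. The planar polarity cadherin Celsr1 was at 24.7 to 33.7 CPM in the controls and 7.25 to 12.4 CPM in the cKO, a change of -1.54 on the log2 scale (SE 0.15, adjusted P = 2.95e-05). Ror1, a receptor of Wnt5a, was at 42.9 to 52.3 CPM in the controls and 23.6 to 26.9 CPM in the cKO, a change of -0.90 on the log2 scale (SE 0.08, adjusted P = 1.03e-05). Neither overlapped between the groups. The calcium-dependent kinases Camk2g (-0.51), Camk2d (-0.40) and Camk2a (-0.20) and the kinase Nlk (-0.27) were also lower, and the formin Daam1 (0.20) was higher. Over 20 alternatives Daam1 missed the threshold in 12, Camk2a in 11, Nlk in 3 and Camk2d in 1, while Celsr1, Ror1 and Camk2g passed in all.

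Of 28 cytoplasmic transducers and destruction complex genes, 3 were higher, Apc2 (0.75), Tnks (0.53) and Dact3 (0.38), and 0 were lower. This share of 10.7% was below the 16.3% of all genes tested, with a list median of -0.03, and 1 gene passed in the 5 Rps3a3-low libraries and without control replicates 3 and 5. Of 8 genes of receptor turnover, 2 (25%) were higher, the R-spondin receptor Lgr4 (0.63, adjusted P = 0.00295) and Kremen1 (0.30), which binds Dickkopf proteins. Kremen1 missed the threshold in 3 of 20 alternatives, the replicate block among them. Of 9 genes of Wnt production and release, Trabd2b, a protease that cleaves Wnt proteins, was lower (-0.84, adjusted P = 0.00623) and the others did not pass, a share of 11.1%. Of 17 nuclear partners of β-catenin, Sox17 (-0.46, adjusted P = 0.0022), an endothelial factor, was lower and the others did not pass, a share of 5.88%. The count for this list was 3 with DESeq2 (18.9% of all genes passed), with RLE scaling (16.4%) and without control replicate 1 (16.4%). It was 2 without cKO replicate 1 (16.9%) or control replicate 2 (14.2%), and 0 in the 5 Rps3a3-low libraries (5.44%).

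The changes were also computed within the Rps3a3-low and the Rps3a3-high libraries as differences of mean log2(CPM + 0.5), a scale that understates changes of low genes. The 7 called genes kept their direction in both sets: Wnt16 differed by 2.24 in the low and 3.78 in the high set, Wif1 by 1.31 and 2.16, Sfrp2 by 1.06 and 0.80, Wnt9b by 0.65 and 0.32, Frzb by 0.57 and 0.94, Sfrp1 by 0.65 and 0.82, and Sfrp5 by -0.78 and -0.59. Fzd1 (0.54 and 0.69) and Tcf7l2 (-0.40 and -0.40) did so too. Fzd2 differed by 0.20 in the low set and 0.75 in the high set, Lrp5 by 0.03 and 0.53, and Axin2 by -0.05 and -0.57. The high set holds 1 cKO library and allows no test of its own, and a difference between the sets was not tested. With the set as a term, 13 members passed, 12 of them among the original 13, where 19.9% of all genes tested passed. Fzd2 then missed the threshold (adjusted P = 0.0591) and Wnt10b reached it (adjusted P = 0.0270). In the 5 Rps3a3-low libraries alone 5 of 38 tested members passed (Wnt16, Fzd1, Sfrp1, Sfrp2 and Wif1), where the share of all genes tested also fell, from 16.3% to 5.44%.

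**Figure D4:**
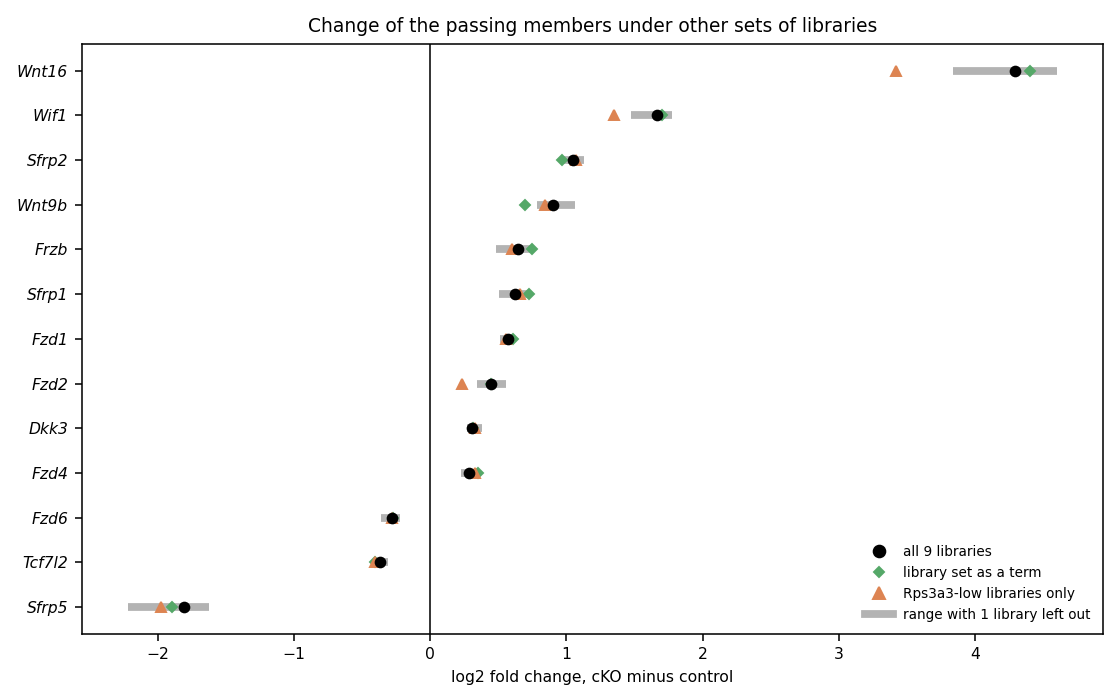
Log2 fold change between cKO and control of the 13 members that passed, from all 9 libraries (black), with the Rps3a3 library set as a term (green) and from the 5 Rps3a3-low libraries alone (orange), with grey bars for the range when 1 library is left out. All 13 lie on the same side of 0 in each, with Wnt16 between 3.42 and 4.60.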

How the data were processed

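RNA-Seq of ventricles was measured in 5 control and 4 cKO libraries. The study's methods describe a stranded mRNA kit, single-end reads and mapping to mm10, and the submitters' processing notes name STAR 2.4.2a and HTSeq 0.6.1. The methods mention 4 controls and a legend 5, and all 5 labelled libraries were used. Which annotation was counted, and whether by strand, is not given in the sources used here. The authors deposited raw counts per gene, with no normalization, in 1 table with 0 other sample columns. Symbols, coordinates and exon lengths came from GENCODE M21 (GRCm38), which holds 36429 of the 38293 identifiers and 99.82% of the counts.

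Genes were filtered with filterByExpr (minimum count 10, 15318 genes kept) and libraries scaled by TMM. Differential expression was tested two-sided in edgeR 4.0.16 (R 4.3.3) by its quasi-likelihood test, with genotype as the only term, and P-values were Benjamini-Hochberg adjusted over all genes tested. Calls needed an adjusted P under 0.05 and a change above 1.5-fold, thresholds taken from the study. SE came from the F statistic, and 95% intervals from its degrees of freedom. These intervals are for single genes and are not adjusted for the number of genes tested. The replicates carry no animal identifiers in the labels, so P-values measure the spread between these samples. Depth limits genes of few counts, and limits for counts of 0 cover counting error only.

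The members, gene lists and tests were chosen with earlier results of these data known. Levels per library are printed for members that passed, for the member of each class with the highest control level per kb, and for Axin2 and Arid1a. Up to 5 passing genes with the largest change are named per other list, and genes named beyond this, including Camk2a, Daam1, Id2 and the markers, were chosen after their values were seen. The alternatives were DESeq2 1.42.0, RLE and upper-quartile scaling, other filters, the library set or the Xist level as a term, a replicate block, subsets of libraries and leaving out each library. Promoter windows came from RefSeq (GRCm38.p6).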

Additional observations from a re-analysis of the deposited data

Results flagged for a closer look

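In 4 of 72 groups of libraries, each a tested member in the controls or in the cKO, 1 library lay farther from the others than Dixon's 95% critical value. Chance gives about 1 in 20 such groups. Rspo1 was at 2.85 CPM in control replicate 5, against 0.0903 to 0.554 CPM in the other controls. Rspo3 was at 0.938 CPM in the same library, against 0.261 to 0.391 CPM. Tcf7 was at 8.98 CPM in control replicate 3, against 1.48 to 2.43 CPM in the other controls. Dkk3 was at 59.3 CPM in cKO replicate 1, against 57.0 to 57.3 CPM in the other cKO libraries, a gap that is wide only beside the small spread of those 3.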

How the results depend on the processing

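Over 20 alternatives, 2 of them chosen after seeing the data, Wnt16, Fzd1, Wif1, Sfrp1 and Sfrp2 passed in all, and the largest shift in the median log2 fold change of all genes was 0.016. Fzd2 missed an adjusted P of 0.05 in 14 alternatives, Fzd4 in 12, Fzd6 in 11, Dkk3 in 8, Wnt9b in 3, Frzb in 2, Tcf7l2 in 1, and Sfrp5 in 1 of 19, since the filter at a mean of 1 CPM left it out. Of the called genes, Wnt9b, Frzb and Sfrp1 lost the call, which also needs 1.5-fold, in 3 alternatives each and Sfrp5 in 1. The number of members passing was 13, with 16.3% of all genes passing. It was 14 with DESeq2 (the same 13 and Wnt2b; 18.9% of all genes), 11 with no filter on low counts (9.54%), 11 with the Xist level as a term (13.9%), 8 without control replicates 3 and 5 (8.54%) and 5 in the 5 Rps3a3-low libraries (5.44%). In the last, 4 were called instead of 7, and 3.97% of all genes instead of 6.72%. With 1 library left out, 9 to 13 members passed and 5 to 9 were called, with 12.3% to 16.9% of all genes passing and 5.88% to 7.55% called. The median log2 fold change of the members was 0.14 with a filter at a mean of 1 CPM, 0.15 with the replicate block, 0.15 in the same 8 libraries without the block, 0.23 in the 5 Rps3a3-low libraries, 0.22 without control replicates 3 and 5, and -0.037 to 0.15 with 1 library left out. The direction of 8 members that did not pass changed. In the 5 Rps3a3-low libraries the log2 fold change was 0.56 for Wnt4, 0.14 for Lrp6, 0.13 for Dkk2, 1.17 for Rspo1, 0.69 for Rspo3, 0.54 for Lef1, 0.25 for Tcf7 and -0.10 for Tcf7l1, each opposite to that of all libraries. Without control replicates 3 and 5 it turned to 0.59 for Wnt4, 1.33 for Rspo1, 0.36 for Rspo3, 0.74 for Lef1, 0.25 for Tcf7 and -0.033 for Tcf7l1. With the library set as a term it turned to 0.0053 for Wnt4, 0.020 for Lrp6 and 0.046 for Lef1, and with the Xist level as a term to 0.065 for Rspo3. With the replicate block it turned to 0.38 for Wnt4, 0.77 for Rspo1 and 0.35 for Rspo3, and in those 8 libraries without the block to 0.25, 0.59 and 0.38. With 1 library left out, the changes ran from -0.28 to 0.25 for Wnt4, from -0.54 to 0.29 for Lef1, from -1.26 to 0.59 for Rspo1, from -0.18 to 0.38 for Rspo3, from -0.79 to 0.17 for Tcf7 and from -0.0085 to 0.14 for Tcf7l1. The cause was not tested. The labels do not say whether same-numbered samples were paired. Deviations of same-numbered libraries correlated at -0.05, 0.07, -0.01 and 0.30, which shows no strong pairing but cannot exclude one. With the replicate block 11 members passed (11.3% of all genes), against 10 in the same 8 libraries without it (12.5%). Members under about 1 CPM rest on few counts, which limits Sfrp5, Wnt2, Wnt4, Wnt10b, Fzd9, Dkk2, Rspo1, Rspo3 and Lef1 in both groups, and Wnt11 and Wnt16 in the controls.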
